A study of Mus musculus with 4 samples.

Results

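The 9 genes described here are the hedgehog receptors, their inhibitors and partners, and the Gli transcription factors: *Ptch1*, *Hhip*, *Cdon*, *Boc*, *Smo*, *Sufu*, *Gli1*, *Gli2* and *Gli3*. They were taken by gene symbol from the 32288 features of the count tables, each matched 1 feature, and all 9 had enough counts to enter the comparisons over chondrocytes and over the surrounding cells. They were followed through single-cell transcriptomes of E14.5 mouse hindlimbs (femur and tibia in the labels, the whole hindlimb in the study's text), with 3 questions: which cell classes carry the transcripts of hedgehog response, how these levels relate to labelling by Gli1-CreER, and whether p21 in cartilage moved them inside or outside the cartilage.

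In the hedgehog pathway, the secreted ligands (Indian hedgehog in the growing skeleton, Sonic hedgehog in the early limb bud, Desert hedgehog elsewhere) bind PTCH1, a membrane protein that otherwise holds SMO inactive. CDON and BOC are co-receptors that help ligand reach PTCH1, and HHIP is a membrane protein that takes up ligand and limits its reach. Active SMO works in the primary cilium, where it releases the Gli proteins from SUFU; GLI2 then acts mainly as an activator and GLI3, without signal, mainly as a repressor. *Gli1*, *Ptch1* and *Hhip* are themselves transcribed in response to the pathway, so their transcripts serve as a readout of it, and in cartilage *Ihh* comes from prehypertrophic chondrocytes and is received by proliferating chondrocytes and the perichondrium.

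All embryos came from *Gli1CreER/CreER* mothers. The fathers were *R26LSL-tdT/LSL-tdT* and *TigreTRE-p21/TRE-p21* and carried *Col2a1-rtTA*, so every embryo, controls included, carried 1 *Gli1* allele with CreER inserted, 1 reporter allele and 1 p21 transgene. Embryos that inherited *Col2a1-rtTA*, the driver that turns on the p21 transgene in chondrocytes when doxycycline is given, are called p21 here (Pan-Cart-p21MOE in the study), and embryos without it are the controls. The study describes the transgene as active in a mosaic of chondrocytes, so p21 pools hold cells with and without it. Doxycycline was given to the mother from E12.5 (1 mg/ml in the water, and in the food) and tamoxifen at E13.5 (120 µg/g), and at E14.5 the cells were sorted into tdTomato-positive (tdT+) and tdTomato-negative (tdT−) fractions in 2 collections, giving 4 libraries. Each library joined p21 embryos of 1 sex with control embryos of the other, so its cells were split by their sex-linked transcripts into 8 pseudobulks (summed counts): the tdT+ and the tdT− cells of 4 embryo pools. Per the study's methods the pools held 2 embryos each, except for 1 embryo in the female p21 pool of collection 2. The study's results text gives a different number of embryos per sample. The *Gli1CreER* allele is a knock-in at *Gli1* itself, so sorting on tdT selects on *Gli1* activity at labelling, and the tdT+ and tdT− values of a pool come from the same embryos.

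The libraries held 2541 to 6455 barcodes from 500 UMIs upward (UMIs are counted molecules) and 11945062 to 39435830 UMIs, and each shared between 14 and 24 barcodes with another library. After filtering, 6411 cells were kept, of which 2694 could be assigned to a condition. Of 23 clusters, the 12 with a median of at least 10000 UMIs, holding 2865 cells, are used for levels by cell class. They were named from markers as osteoprogenitor-like (*Alpl*, *Runx2*), fibroblast-like, tenocyte-like, interzone-like (*Gdf5*), resting, proliferative and prehypertrophic or hypertrophic chondrocyte-like (*Col10a1*, *Ihh*, called hypertrophic-like below), muscle-like (31 cells) and endothelial-like (13 cells), and 3 stayed unnamed: cluster 7, led by cell cycle genes (*Top2a*, *Kif11*), cluster 10, led by *Coro1a* and *Lef1*, and cluster 14, led by *Nkain2* and *Isl1*. Cells outside cartilage are those of every cluster other than the 3 chondrocyte classes, muscle-like and endothelial-like cells. Of the 1768 such cells with a condition, 944 were in the 4 named connective classes (56.4% of the UMIs), 601 in clusters 7, 10 and 14 (40.5%) and 223 in 11 unnamed clusters of lower depth (3.14%). Transcripts of cartilage were also found beyond the chondrocyte classes. A *Col2a1* UMI was present in 84.6% of endothelial-like and 100% of muscle-like cells, and an *Acan* (aggrecan) UMI in 80.4% of cluster 7 and 88.0% of cluster 10, against 22.6% of muscle-like, 46.2% of endothelial-like and 27.8% of fibroblast-like cells. Pooled *Col2a1* in CPM (defined below) was 3553 in cluster 7, 2641 in cluster 10 and 2404 in cluster 14. It was 4698 in resting chondrocyte-like cells and 256 (fibroblast-like) to 1218 (interzone-like) in the named connective classes. By library, cluster 7 (2483 to 4881) overlapped resting cells (3948 to 5397), and cluster 10 (1201 to 2982) overlapped interzone-like cells (973 to 1649). Whether free RNA, doublets or cartilage cells gave the *Acan* and *Col2a1* UMIs of clusters 7 and 10 was not tested. Clusters 7, 10 and 14 were counted as outside cartilage in the main comparisons.

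The reporter followed the sort. The tdTomato transcript lay between 14.9 and 20.3 CPM (UMIs of a gene per 1000000 UMIs of the sample) in the 4 tdT+ pseudobulks of all cells and between 1.02 and 2.42 in the 4 tdT− ones, a log2 difference of 3.75 with an adjusted p of 0.000160 (edgeR's quasi-likelihood test, Benjamini-Hochberg adjustment over all genes, here and below). The p21 labels were checked on WPRE, an RNA-stabilising element that the p21 and tdTomato transgenes both carry, and to which most of their reads map per the study's text. In tdT− chondrocytes it stood at 1096 and 1367 CPM in the p21 pools against 115 and 66.8 in the controls, while in tdT+ chondrocytes of the controls it was already 744 and 491. Over both fractions it was higher in p21 chondrocytes by 2.50 on the log2 scale (SE 0.411, adjusted p = 0.0390). *Cdkn1a*, which encodes p21, differed by 0.33 with an adjusted p of 0.777. CreERT2, the recombinase transcript, was at 0.82 to 3.51 CPM outside cartilage and did not pass the test between fractions in all cells (adjusted p = 0.761).

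*Ptch1*, the receptor and a target of the pathway, was highest in osteoprogenitor-like cells. Its level there was 380, 401, 340 and 326 CPM in the tdT+ library of collection 1, the tdT+ library of collection 2, and the tdT− libraries of collections 1 and 2, the order used for all sets of 4 below, with a mean of 362 ± 34.8 (SD, n = 4 libraries). Proliferative chondrocyte-like cells came next with 315, 289, 292 and 249 (286 ± 27.1), and the lowest osteoprogenitor-like library lay above the highest of these. The order then ran through cluster 10 (mean 223), cluster 7 (197), interzone-like (163), hypertrophic-like (145), resting (136) and fibroblast-like cells (115 ± 40.6), and each of these neighbours overlapped the next over the 4 libraries. Pooled over libraries, *Ptch1* was 49.9 in tenocyte-like cells, 57.8 in muscle-like cells and 39.1 in endothelial-like cells. When each cell was thinned to 5000 UMIs, 72.6% of osteoprogenitor-like and 66.7% of proliferative chondrocyte-like cells had a *Ptch1* UMI, against 31.8% (exact 95% interval 18.6 to 47.6%) of the muscle-like and endothelial-like cells and 25.96% of tenocyte-like cells, whose share is thus at the level of this background.

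*Gli1*, the activator whose transcription follows the pathway, was also highest in osteoprogenitor-like cells, at 25.6, 30.5, 28.4 and 32.2 CPM (29.2 ± 2.83), and lowest among the 8 classes with 4 libraries in hypertrophic-like cells, at 7.79, 8.93, 0 and 11.2 (6.99 ± 4.88). The fold between these means was 4.17, and every osteoprogenitor-like library exceeded every hypertrophic-like one, but no pair of neighbours in the order was separated over the libraries. Between them lay fibroblast-like cells (22.9 ± 6.80), cluster 10 (22.2), cluster 7 (21.9), proliferative (18.6 ± 1.94) and resting chondrocyte-like cells (16.6 ± 5.16) and interzone-like cells (15.6). The pooled *Gli1* level of tenocyte-like cells was 5.91, and muscle-like and endothelial-like cells gave 2 and 1 *Gli1* UMIs in all. After thinning to 5000 UMIs, a *Gli1* UMI was found in 15.2% of osteoprogenitor-like cells (56 of 369, exact 95% interval 11.7 to 19.3%), 11.0% of fibroblast-like, 8.74% of proliferative, 6.90% of resting and 5.03% of hypertrophic-like cells. In the muscle-like and endothelial-like cells, taken as the background share, the value was 2.27% (1 of 44, interval 0.0575 to 12.02%; median 18635.5 UMIs). The 1.92% of tenocyte-like cells (2 of 104) lay below it, and the background's interval, wide with so few cells, takes in every class other than osteoprogenitor-like cells. Without thinning the shares were 46.5% in osteoprogenitor-like, 46.0% in cluster 7 and 34.1% in fibroblast-like cells against 6.82% in muscle-like and endothelial-like cells. All intervals cover counting error only.

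**Figure D1:**
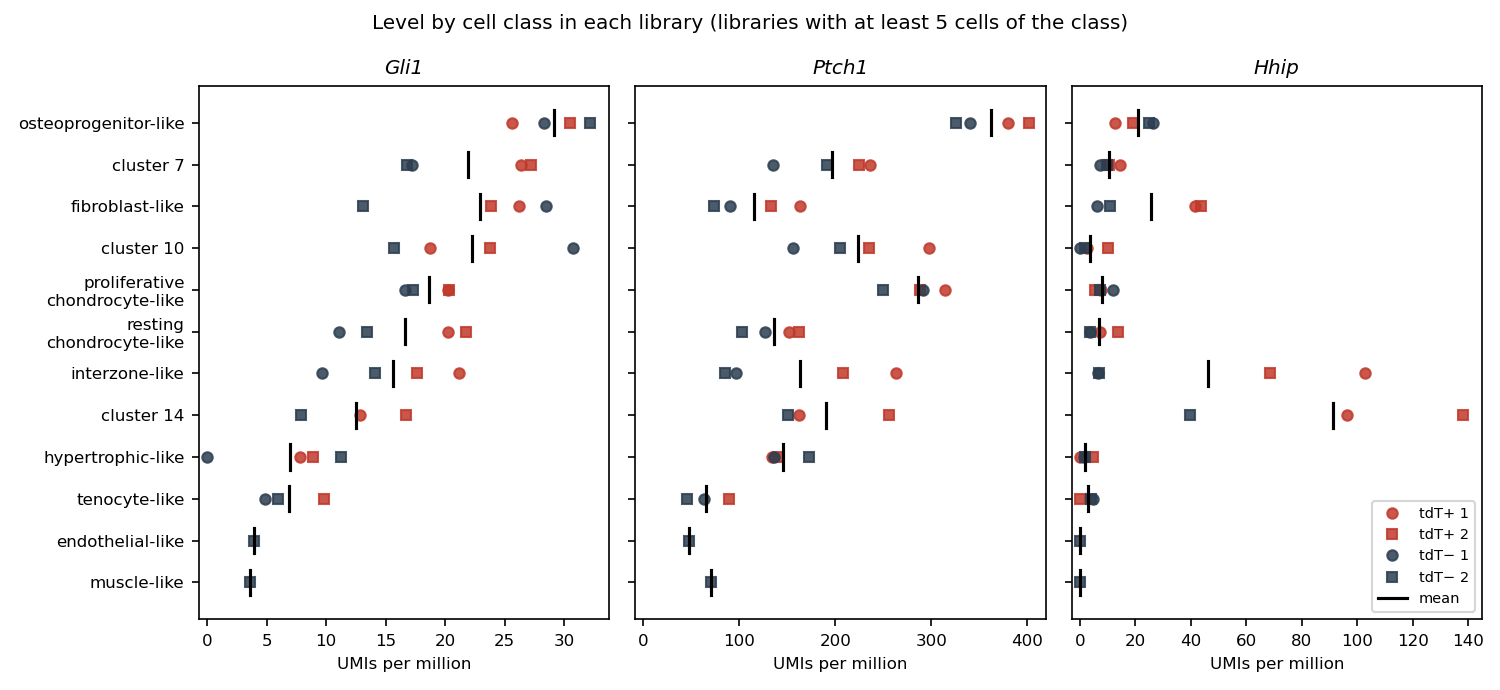
Levels of *Gli1*, *Ptch1* and *Hhip* in CPM (horizontal axes) in 12 cell classes (vertical axis). Points are libraries with at least 5 cells of the class and bars their mean; osteoprogenitor-like cells lead for *Gli1* (mean 29.2) and *Ptch1* (mean 362), whereas *Hhip* is highest in cluster 14 and interzone-like cells, where its points are spread widely.

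*Hhip*, the ligand-binding inhibitor, had a different distribution, with the widest range of the 9 genes. Its mean was 91.3 ± 49.4 CPM in cluster 14 (n = 3 libraries), 46.2 ± 47.6 in interzone-like, 25.6 ± 19.6 in fibroblast-like and 20.8 ± 6.17 in osteoprogenitor-like cells, and 2.01 in hypertrophic-like cells, a fold of 23.0 between interzone-like and hypertrophic-like cells. The spread had a pattern by sorted fraction: interzone-like cells were at 103 and 68.7 in the tdT+ libraries and 6.42 and 7.04 in the tdT− libraries (34, 35, 2 and 3 UMIs in 20, 24, 19 and 21 cells). Fibroblast-like cells were at 41.4 and 43.6 against 6.33 and 11.0 (109, 188, 4 and 53 UMIs). In both classes the tdT+ libraries were above the tdT− libraries, while in osteoprogenitor-like cells the order was the opposite, 12.8 and 19.1 in tdT+ against 26.3 and 24.9 in tdT−. No *Hhip* UMI was present after thinning in the 44 muscle-like and endothelial-like cells (exact upper limit 8.04%), against 29.3% of cluster 14 and 14.7% of interzone-like cells.

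The co-receptors were arranged differently from the targets. *Cdon* was highest in interzone-like cells, at 205, 200, 196 and 176 CPM (194 ± 12.8), above the highest library of any other class with 4 libraries, and lowest in hypertrophic-like cells (15.6), with 26.2 in the pooled osteoprogenitor-like cells. Tenocyte-like cells, with 119 pooled, stood second, although these cells were low in *Ptch1* and *Gli1*. *Boc* was highest, among classes with 4 libraries, in proliferative chondrocyte-like cells, at 140, 108, 120 and 121 (122 ± 13.2), and lowest in hypertrophic-like cells, at 27.8, 16.9, 16.5 and 17.2 (19.6 ± 5.49), with no overlap between osteoprogenitor-like cells and the hypertrophic-like cells that followed them in the order.

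*Smo*, the signal transducer, and *Sufu*, the cytoplasmic inhibitor of Gli proteins, differed less between classes. *Smo* had the smallest fold of the 9 genes between its highest and lowest class (2.63 over the 8 classes with 4 libraries), and *Sufu* had 3.25. *Smo* was 106 ± 5.82 in proliferative chondrocyte-like and 104 ± 10.4 in osteoprogenitor-like cells, and 40.3 in hypertrophic-like cells, whose libraries lay below those of resting cells, their neighbour. *Sufu* was 48.3 ± 5.67 in osteoprogenitor-like and 14.8 in hypertrophic-like cells. For *Gli1*, *Gli2*, *Gli3*, *Hhip*, *Smo*, *Sufu*, *Cdon* and *Boc* the hypertrophic-like class, which had the highest *Ihh*, was the lowest of the 8 in CPM, and for *Ptch1* the lowest was the fibroblast-like class. CPM are relative to all UMIs, and hypertrophic-like cells had a median of 42285.5 UMIs, against 17418.5 in resting and 14874 in proliferative cells. Without thinning, 30% of hypertrophic-like cells had a *Gli1* UMI, against 23.3% of resting and 25.7% of proliferative cells. What the depth of the cells added to the order was not tested.

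*Gli2* and *Gli3* were both highest in interzone-like cells, the future joint. *Gli2* was at 232, 206, 173 and 160 CPM there (193 ± 32.8), against 79.7 ± 3.64 in osteoprogenitor-like cells and 23.9 in hypertrophic-like cells. *Gli3* was at 495, 626, 671 and 666 (615 ± 82.3), against 283 in proliferative chondrocyte-like cells and 109 in hypertrophic-like cells. For both genes the interzone-like libraries lay above all libraries of the next class. The interzone-like class held only 84 cells, and its *Gli1* level, 21.1, 17.7, 9.64 and 14.1, was in the middle of the order.

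**Figure D2:**
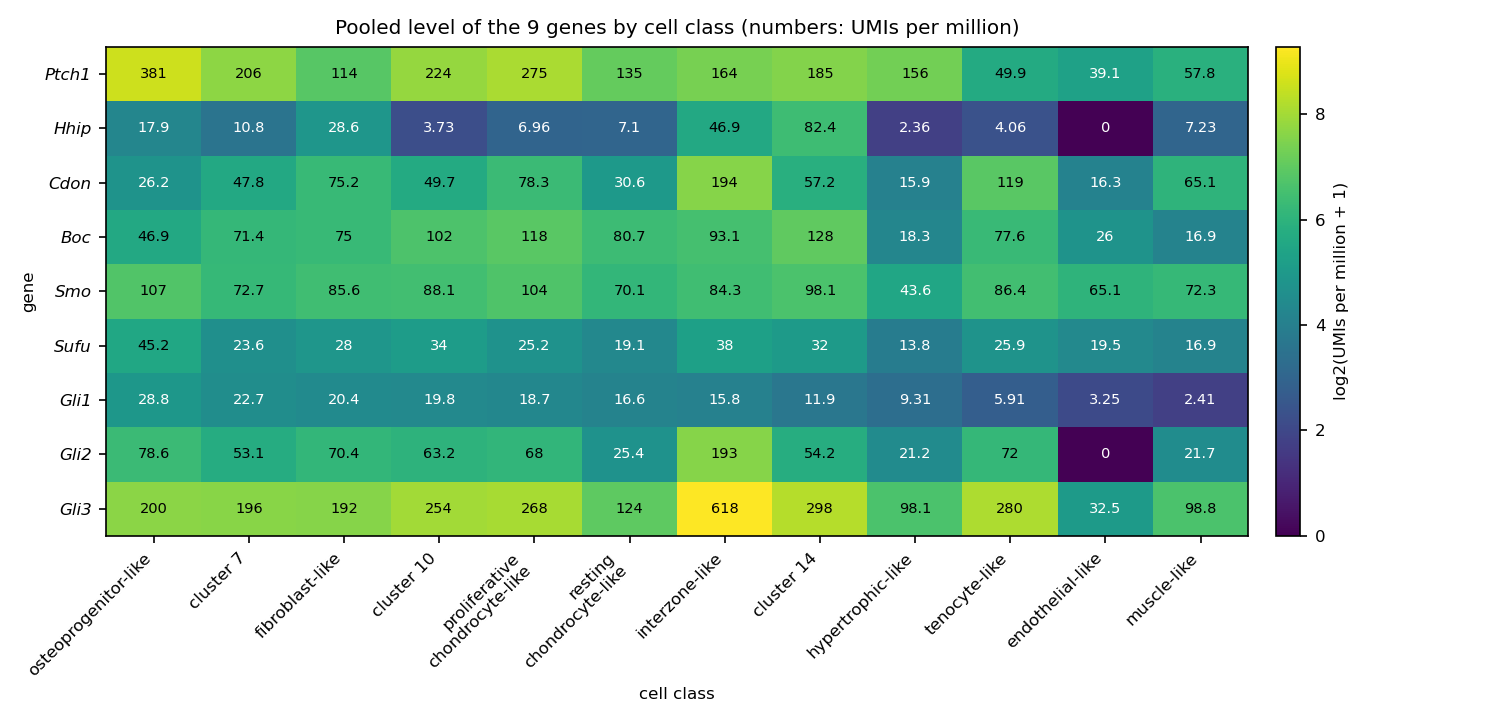
Pooled level of each of the 9 genes (rows) in 12 cell classes (columns), printed in CPM and coloured by log2(CPM + 1). *Cdon* (194), *Gli2* (193) and *Gli3* (618) peak in interzone-like cells, *Ptch1* (381) and *Gli1* (28.8) in osteoprogenitor-like cells.

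Of the ligands, *Ihh* was highest in hypertrophic-like cells, at 92.6 CPM pooled (exact 95% interval 86.1 to 99.5, counting error only), with 21.6 in cluster 7, 7.48 in resting cells, 6.99 in cluster 10 and at most 4.82 in the other classes. By library, the lowest hypertrophic-like value was 48.96 and the highest of cluster 7 was 55.0, so these classes overlapped. A single *Shh* UMI was found, in proliferative chondrocyte-like cells, and *Dhh* reached at most 1.29.

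The genes whose levels followed *Gli1* most closely over 40 class and library points from 12 classes, among 7142 genes, were *Tbx15* (Pearson r = 0.746 of log2 levels), *Pard6g* (0.717), *Eln* (0.698), *Fzd2* (0.695) and *Rcor3* (0.693). *Ptch1* itself had r = 0.587 with *Gli1* and *Smo* 0.555. For *Ptch1* the closest were *Scube1* (0.812), which helps release lipid-modified ligand, *Fgfr2* (0.769), *Crispld1* (0.760), *Tasp1* (0.753) and *Daam2* (0.751). Among the 9 genes the closest pairs were *Gli2* with *Gli3* (0.871), *Gli3* with *Cdon* (0.793) and *Smo* with *Sufu* (0.695), whereas *Ptch1* and *Cdon* gave −0.122. These correlations are descriptions: the points share libraries and cell classes, and low counts weaken them for *Gli1* and *Hhip*.

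The classes were labelled to very different extents. Osteoprogenitor-like cells made up 24.1% and 22.7% of the class cells in the tdT+ libraries of collections 1 and 2 and 5.54% and 4.91% in the tdT− libraries (123, 200, 23 and 52 cells), ratios of 4.35 and 4.61. Tenocyte-like cells were at the other end, with 0.392% and 1.02% against 6.51% and 8.79%, ratios of 0.0603 and 0.116. No endothelial-like cell was in a tdT+ library, against 4 and 9 in the tdT− libraries. For fibroblast-like cells the ratios were 2.24 and 1.15, and for cluster 14 they were 4.68 and 0.995, so collections differed there. Interzone-like cells gave 0.857 and 1.37, cluster 7 0.939 and 1.66, and the chondrocyte classes lay below 1 in both collections: 0.440 and 0.787 for resting, 0.745 and 0.813 for proliferative, 0.868 and 0.553 for hypertrophic-like cells. These are shares of the cells recovered by the sort, not of the tissue.

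Classes with more *Gli1* were more often labelled. Over the 12 classes, the mean log2 ratio of shares (with 0.5 cells added to each count, since 1 class had no tdT+ cell) had r = 0.777 (Spearman's rho 0.720) with the log2 pooled *Gli1* level, and 0.758 without muscle-like and endothelial-like cells; the collections taken alone gave 0.594 and 0.890. For *Ptch1* r was 0.856 (rho 0.692), and 0.636 without endothelial-like and tenocyte-like cells, and for *Hhip* 0.754 (rho 0.762), and 0.578 without the 2 classes farthest from the median. The other genes gave 0.617 for *Gli2*, 0.529 for *Sufu*, 0.498 for *Gli3*, 0.379 for *Smo*, 0.329 for *Boc* and 0.0577 for *Cdon*, and *Gli2* and *Gli3* dropped to 0.260 and 0.0994 when 2 extreme classes were left out. The values depended on how classes were formed. At a Leiden resolution of 0.6, which left 6 classes, r was 0.875 for *Gli1*, 0.665 for *Ptch1* (rho 0.371) and 0.217 for *Hhip* (rho 0.0857), whereas a minimum of 3000 UMIs (16 classes) gave 0.737, 0.673 and 0.597, with 0.404 for *Gli1* in collection 1 alone, and a resolution of 1.5 gave 0.859, 0.880 and 0.738. These values are descriptions over classes that share libraries. The *Gli1* relation is also built into the sort, whereas levels were read at E14.5, a day after tamoxifen. For every gene the pooled level holds tdT+ cells as well, so a class with more labelled cells takes more of its level from them. For *Hhip* the pooled and tdT−-only levels were 46.9 and 6.78 CPM in interzone-like, 28.6 and 10.5 in fibroblast-like, and 17.9 and 25.3 in osteoprogenitor-like cells. The relation to tdT−-only levels was not tested.

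**Figure D3:**
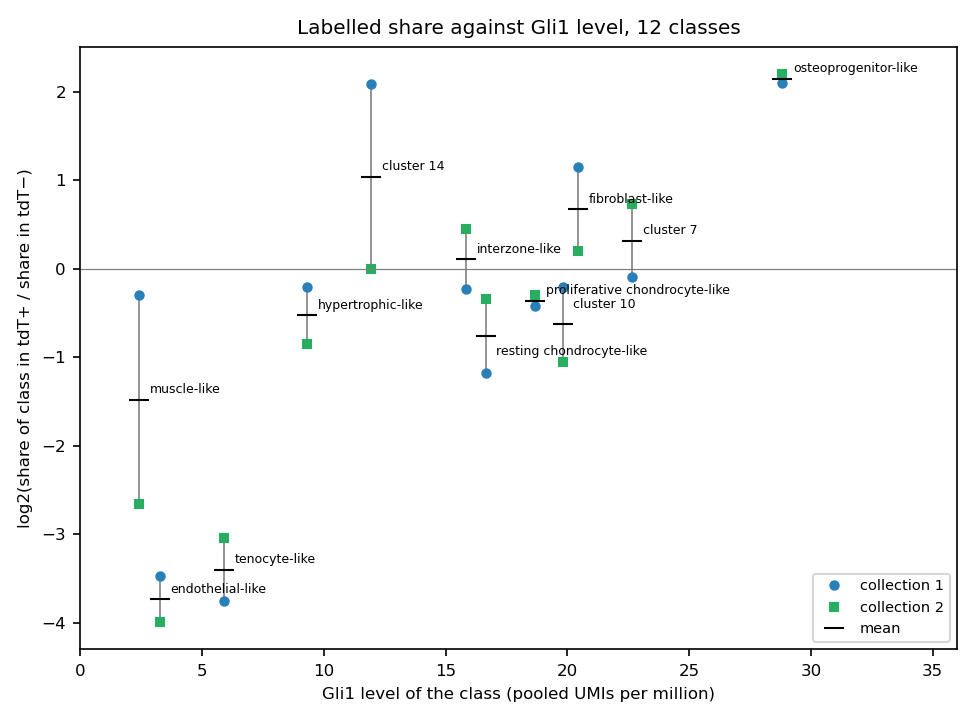
Log2 ratio of a class's share of cells in the tdT+ library to its share in the tdT− library (vertical axis) against its pooled *Gli1* level in CPM (horizontal axis), for 12 classes. Circles are collection 1, squares collection 2 and dashes their mean; osteoprogenitor-like cells sit at the upper right and tenocyte-like, muscle-like and endothelial-like cells at the lower left.

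Between the sorted fractions, *Ptch1* and *Hhip* were the members that rose. In all cells, *Ptch1* was 235, 254, 237 and 240 CPM in tdT+ cells (control and p21 of collection 1, then control and p21 of collection 2) and 174, 160, 180 and 157 in tdT− cells, a log2 difference of 0.53 (SE 0.065, fold 1.44, adjusted p = 0.00917). *Hhip* was 21.2, 22.3, 21.5 and 23.5 against 5.86, 11.6, 8.59 and 8.55, a log2 difference of 1.40 (SE 0.144, fold 2.65, adjusted p = 0.00430). For both genes no tdT− value reached any tdT+ value. *Gli1*, on which the sort acts, was 22.0, 22.8, 23.9 and 22.7 against 19.5, 12.6, 13.4 and 15.5, a difference of 0.57 that just missed the threshold (adjusted p = 0.0511) although these groups did not overlap either; it passed with DESeq2 (adjusted p = 0.0175) and limma voom (0.0307). Thus 2 of the 9 genes passed, both higher, against 2.21% of all 14816 genes tested (328 genes), and 6 had an unadjusted p below 0.05, against 18% of all genes (2662). In summed counts like these, more cells of a class and more RNA per cell cannot be told apart. Because the fractions differ in their cell classes, the same comparison was made in chondrocytes and outside cartilage separately.

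Outside cartilage, the difference in *Ptch1* was 0.71 on the log2 scale (SE 0.083, 95% interval 0.52 to 0.89, fold 1.63, adjusted p = 0.00699), from 254, 274, 248 and 256 CPM in tdT+ cells and 152, 167, 174 and 141 in tdT− cells. *Hhip* differed by 1.38 (SE 0.179, interval 0.99 to 1.78, fold 2.61, adjusted p = 0.0103), from 26.98, 27.4, 23.7 and 33.0 against 9.73, 5.71, 12.6 and 11.3. Both held within each collection, at 0.72 and 0.67 for *Ptch1* and 1.69 and 1.18 for *Hhip*. They are 2 of the 9 genes, against 1.39% of 14064 genes (195 genes), and 7 of the 9 had an unadjusted p below 0.05, against 15.2% of all genes (2136). Without the tdT+ library of collection 1 neither passed (*Ptch1* 0.67, adjusted p = 0.110; *Hhip* 1.42, adjusted p = 0.116), with 2 pseudobulks left in the tdT+ group. The share of osteoprogenitor-like cells, the class highest in *Ptch1*, moved with the fraction (above), and its part in the result was not tested.

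The remaining members outside cartilage did not pass. *Gli1* was 23.2, 25.3, 27.05 and 25.3 in tdT+ cells (25.2 ± 1.59) and 24.9, 15.5, 14.9 and 15.6 in tdT− cells (17.7 ± 4.81), a difference of 0.54 (adjusted p = 0.133), with the control cells of tdT− collection 1 as high as the tdT+ cells. Without that tdT− library the difference was 0.71 (adjusted p = 0.0401). *Smo* (94.1 ± 4.93 against 76.6 ± 11.8, difference 0.30) was higher in every tdT+ pseudobulk and *Boc* (69.3 ± 2.53 against 82.5 ± 6.87, −0.26) lower in every one, and neither passed the adjusted threshold. *Gli2* differed by 0.29, *Sufu* by 0.15, *Gli3* by −0.16 and *Cdon* by −0.43 (adjusted p = 0.123). When only the named connective classes were counted as outside, *Cdon* was lower in tdT+ cells by 0.72 on the log2 scale with an adjusted p of 0.0348, and *Ptch1* higher by 1.02 (adjusted p = 0.00571). Cells thinned to 5000 UMIs gave the same order of the fractions in both collections, with a *Gli1* UMI in 13.7% and 12.8% of tdT+ cells outside cartilage against 5.42% and 5.38% of tdT− cells, and a *Ptch1* UMI in 58.0% and 61.8% against 44.3% and 40.2%.

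In chondrocytes none of the 9 genes passed, while 0.00881% of 11345 genes did, which was the tdTomato transcript alone. An unadjusted p below 0.05 was found for 0 of the 9 and for 4.35% of all genes (494). *Ptch1* was 185, 207, 218 and 216 in tdT+ chondrocytes (207 ± 15.1) and 200, 157, 195 and 192 in tdT− ones (186 ± 19.5), a log2 difference of 0.14 with a 95% interval of −0.07 to 0.36. *Gli1* was 19.3, 16.9, 15.4 and 18.2 against 12.6, 8.89, 11.2 and 16.3, a difference of 0.41 (interval −0.05 to 0.86). The *Hhip* counts were small, with 8, 9, 27 and 28 UMIs in tdT+ and 2, 14, 5 and 35 in tdT− chondrocytes, and the interval of −0.73 to 2.09 spans the difference found outside. The difference between the effects in the 2 compartments was tested in one model: for *Ptch1* it was −0.58 (interval −0.85 to −0.30, unadjusted p = 0.000630), with an adjusted p of 0.267, and 0 of the 9 genes passed (0.00704% of 14200 genes). Thinned to 5000 UMIs, 11 of 140 and 22 of 262 tdT+ chondrocytes had a *Gli1* UMI (7.86% and 8.40%), against 12 of 166 and 26 of 400 tdT− chondrocytes.

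**Figure D4:**
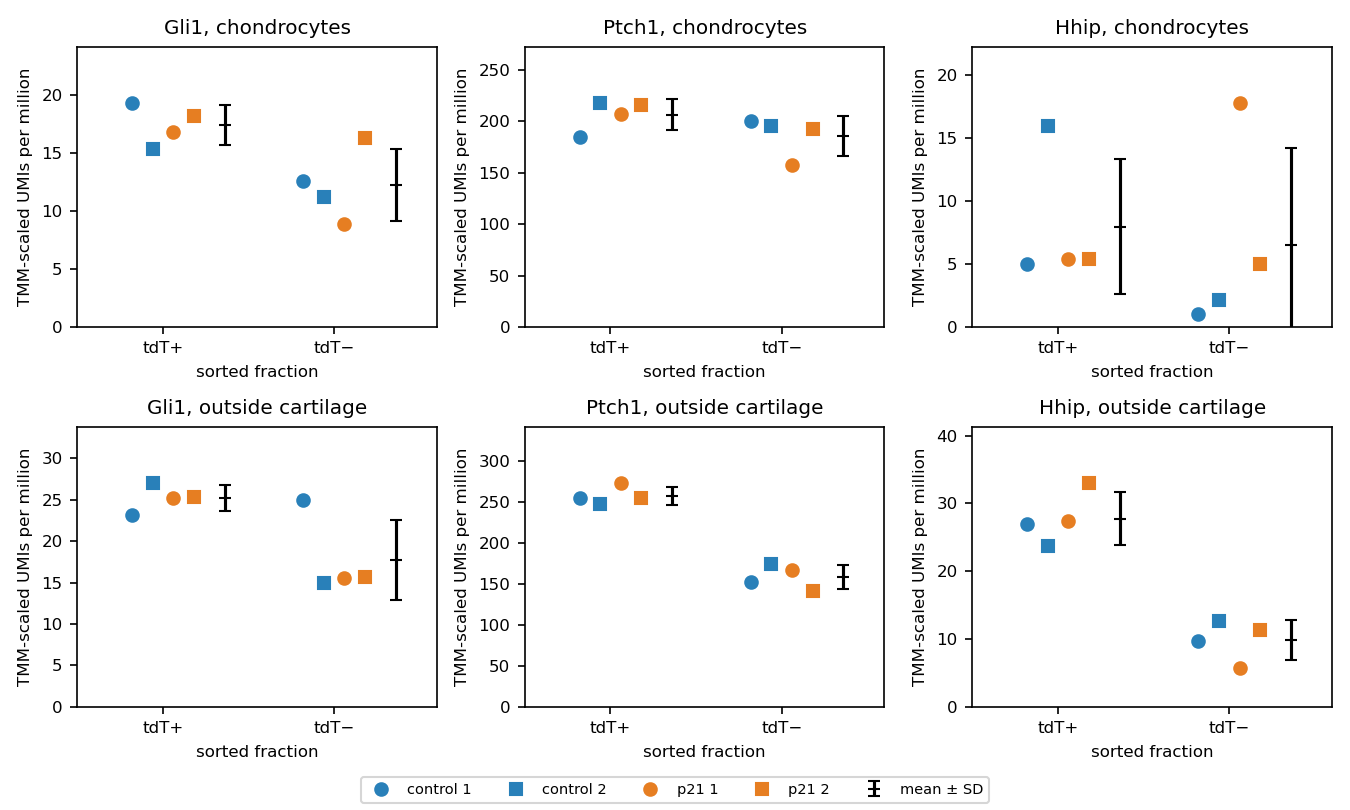
Levels of *Gli1*, *Ptch1* and *Hhip* in the 8 pseudobulks (TMM-scaled CPM, vertical axes) by sorted fraction, in chondrocytes (top row) and outside cartilage (bottom row). Circles are collection 1 and squares collection 2, blue control and orange p21, with the mean and SD of 4; outside cartilage all tdT+ points for *Ptch1* and *Hhip* lie above all tdT− points.

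Within single classes none of the members passed between fractions. Fibroblast-like cells had the largest differences, 1.92 for *Hhip* (SE 0.382, unadjusted p = 0.000259, adjusted p = 0.107) and 0.83 for *Ptch1* (SE 0.209, adjusted p = 0.249). In the individual libraries *Ptch1* was 163 and 133 in tdT+ against 90.2 and 73.7 in tdT− fibroblast-like cells, and 263 and 208 against 96.4 and 84.5 in interzone-like cells, a class too small for the test. In osteoprogenitor-like cells, by contrast, the differences were 0.12 for *Ptch1* (interval −0.21 to 0.46), −0.67 for *Hhip* (−1.72 to 0.38) and −0.07 for *Gli1*. Cluster 7 gave 0.58 for *Gli1* and 0.37 for *Ptch1*, with no adjusted p below 0.187, and resting chondrocyte-like cells 0.54 for *Ptch1* (adjusted p = 0.607). The shares of all genes that passed in these fits were 0.135% in fibroblast-like cells, 0.133% in cluster 7, 0.0204% in osteoprogenitor-like cells, 0.024% in resting cells, and 0% in proliferative and in hypertrophic-like cells.

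Other genes of the pathway were counted by lists. Outside cartilage 1.39% of all genes passed between fractions. Of 17 tested co-receptors and modulators, 2 passed there, 1 in each direction. *Gas1*, a co-receptor, was lower by 0.85 on the log2 scale in tdT+ cells (adjusted p = 0.0382). Its levels were 243, 156, 193 and 255 CPM in tdT+ against 367, 461, 288 and 427 in tdT− cells, and these groups did not overlap. By class, *Gas1* lay between 57.8 and 93.4 CPM in osteoprogenitor-like libraries and between 315 and 486 in fibroblast-like ones. Of 13 tested genes known to respond to hedgehog, *Tbx2*, a limb transcription factor, was higher by 1.12 (adjusted p = 0.0194). *Tbx2* was also among the leading genes of the osteoprogenitor-like cluster, which had the larger share in the tdT+ libraries. Of 6 tested ligand and release genes, *Scube1* was higher by 0.62 (adjusted p = 0.0143), and *Ihh*, at −2.09, did not pass outside (adjusted p = 0.120) but was lower by 1.73 in all cells (adjusted p = 0.0343). *Ihh* lay between 1.69 and 35.3 CPM in the outside pseudobulks, which hold clusters 7 and 10 with their cartilage transcripts, and the part of these clusters in it was not tested. None of 12 genes of ciliary transport passed. What the differing shares of cell classes in the fractions added to the differences of *Gas1*, *Tbx2* and *Scube1* was not tested. The median difference outside was 0.29 for the 9 members, 0.05 for the modulators, 0.15 for the responding genes, −0.03 for ligands and release and 0.06 for ciliary transport, against −0.00 for all genes. In chondrocytes 0 genes of any list passed, with a median of 0.14 for the members.

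p21 in cartilage did not move any of the 9 genes past the threshold in chondrocytes, where the lowest adjusted p was 0.607 and 0.176% of all genes (20 of 11345) passed; an unadjusted p below 0.05 was found for 0 of the 9 and for 8.78% of all genes (996). The *Ptch1* levels in chondrocytes were 207, 216, 157 and 192 in p21 (tdT+ of collections 1 and 2, then tdT−) and 185, 218, 200 and 195 in control pools, a difference of −0.04 with a 95% interval of −0.26 to 0.18. *Gli1* was 16.9, 18.2, 8.89 and 16.3 in p21 and 19.3, 15.4, 12.6 and 11.2 in control chondrocytes, a difference of 0.15 (interval −0.30 to 0.60). Its direction differed between collections, at −0.29 and 0.36. The p21 embryos were male and the controls female in collection 1, and the reverse held in collection 2. Within a collection or a library, here and below, p21 and sex therefore cannot be told apart. After thinning to 5000 UMIs, the share of chondrocytes with a *Gli1* UMI was 6.12%, 7.43%, 0% and 6.36% in p21 and 10.3%, 12.1%, 10.5% and 9.59% in control cells (49, 175, 34 and 283 against 68, 66, 95 and 73 cells). These shares were lower in p21 cells in each library, but the exact 95% intervals overlapped in each, with 10.3% as the upper limit for the 0 of 34 cells. Without thinning the order was turned in each library, at 40.8%, 40.8%, 17.6% and 27.8% in p21 against 31.9%, 25.4%, 15.2% and 27.03% in control cells, with the depth of the cells differing as well. Since the level also points the other way in collection 2, no order is read from these shares. The largest differences were for *Gli2* (−0.38, interval −0.80 to 0.04), *Sufu* (−0.30, −0.64 to 0.04) and *Hhip* (0.30, −1.11 to 1.71), with *Gli3* at −0.17, *Smo* at 0.15, *Cdon* at 0.12 and *Boc* at −0.04. For *Gli2* both collections gave a negative value, −0.38 and −0.42. DESeq2 and limma voom called 0 of the 9 as well. In the same chondrocytes *Ihh* differed by −0.38 (adjusted p = 0.773) and *Scube1* by 0.53 (adjusted p = 0.358), and no gene of any list passed.

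Outside cartilage the p21 difference was again small for the targets. *Ptch1* was 274, 256, 167 and 141 in p21 and 254, 248, 152 and 174 in control pools. The difference was −0.01 with an interval of −0.19 to 0.17, beside the 0.71 found between fractions in the same cells. The p21 intervals, here and in chondrocytes, count the tdT+ and tdT− cells of an embryo pool as separate values and may be too narrow. *Gli1* differed by −0.12 (interval −0.47 to 0.22) and *Hhip* by 0.11 (−0.27 to 0.49), and their signs or sizes varied between collections (−0.23 and −0.04 for *Gli1*, −0.14 and 0.28 for *Hhip*). *Cdon*, at 0.24 (−0.03 to 0.51; 0.34 and 0.19 by collection), had the largest difference, followed by *Gli2* at 0.18, *Sufu* at 0.15, *Gli3* at 0.11, *Smo* at 0.11 and *Boc* at −0.11. The lowest adjusted p was 0.838, 0 of the 9 genes had an unadjusted p below 0.05 (6.14% of all genes, 863, did), DESeq2 and limma voom called 0, and 0.00711% of all 14064 genes passed. With only the named connective classes as outside, *Cdon* was 0.10 and *Hhip* −0.40. *Gli2* was then 0.18, *Gli3* 0.06, *Ptch1* 0.04, *Smo* 0.0008, *Sufu* −0.02, *Gli1* −0.06 and *Boc* −0.09, and 0 of the 9 passed. By class, *Cdon* differed by 0.48 in cluster 7, −0.03 in fibroblast-like and −0.51 in osteoprogenitor-like cells, without passing. A p that misses the threshold does not show that p21 and control cells are alike.

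**Figure D5:**
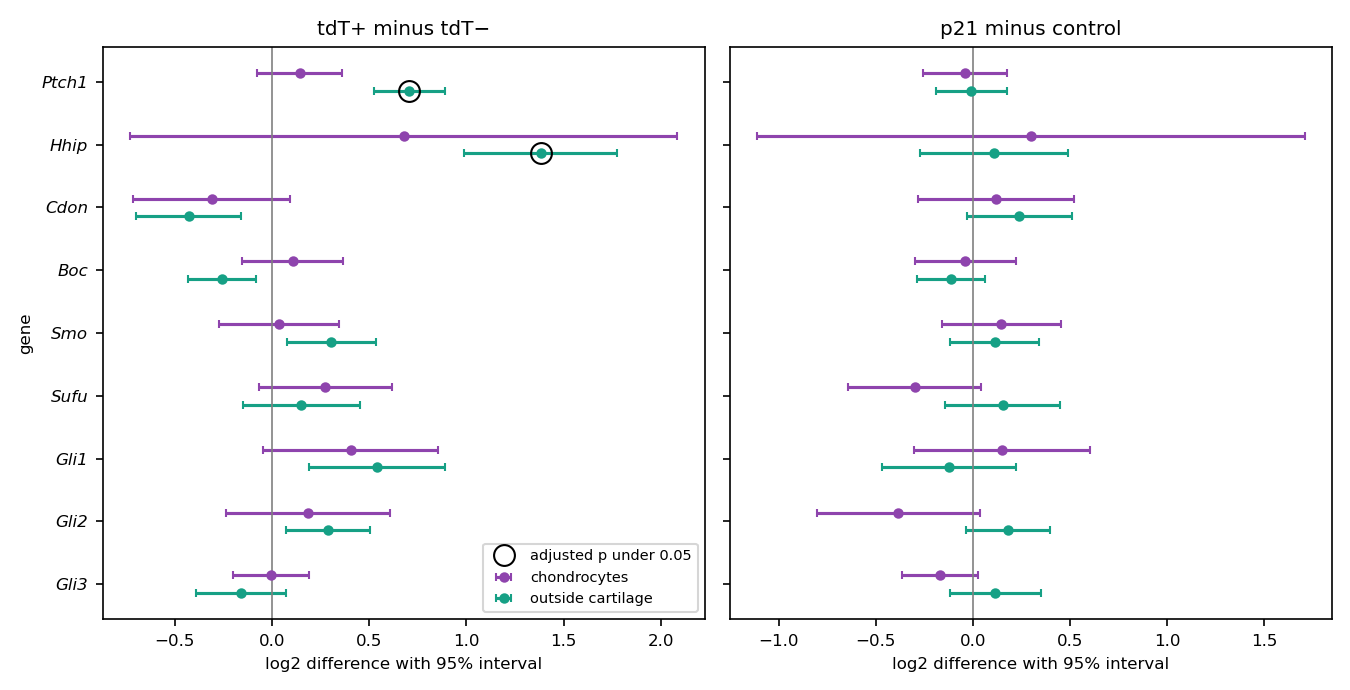
Log2 differences of the 9 genes between tdT+ and tdT− cells (left) and between p21 and control (right), with 95% intervals (horizontal axis) in chondrocytes (purple) and outside cartilage (green). Rings mark an adjusted p below 0.05, reached by *Ptch1* (0.71) and *Hhip* (1.38) outside cartilage between fractions and by none of the 9 between p21 and control.

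The p21 difference inside cartilage was also set against that outside in one model. None of the 9 genes passed (lowest adjusted p = 0.769; 0% of 14200 genes passed), and the unadjusted p was below 0.05 for *Gli2* (−0.53), *Sufu* (−0.41) and *Gli3* (−0.28), all lower in chondrocytes relative to the outside cells, which is 3 of the 9 genes against 6.1% of all genes (866). Between tdT+ and tdT− chondrocytes the p21 difference in *Hhip* was −3.32 (SE 1.08, unadjusted p = 0.00992, adjusted p = 1.00), which rested on 15.95 CPM in the control cells of tdT+ collection 2 and 17.8 in the p21 cells of tdT− collection 1, against 1.05 to 5.42 in the other 6 pseudobulks. *Smo* had −0.56, and 0% of 11800 genes passed.

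By class, *Ptch1* pointed in opposite directions in 2 kinds of chondrocyte under p21, without passing. In hypertrophic-like cells it was 146, 169, 210 and 198 in p21 and 125, 110, 118 and 150 in control cells, a difference of 0.52 (SE 0.163, unadjusted p = 0.00872, adjusted p = 0.646). In proliferative chondrocyte-like cells it was 305, 299, 140 and 252 in p21 and 352, 344, 337 and 336 in control cells, a difference of −0.42 (SE 0.181, unadjusted p = 0.0346, adjusted p = 0.5999); the value of 140 came from 17 UMIs in all. Within each library the p21 value lay above the control in hypertrophic-like cells and below it in proliferative ones. The difference between the classes was not tested. Pairs of classes were compared in this way for each gene, both between p21 and control and between fractions, 236 comparisons in all. Such opposite signs were found in 2 of them, against 1.84 from random and independent signs. The signs are not independent, since the libraries of a collection share embryos and the comparisons share classes. An unadjusted p below 0.05 was found for 1 of 7 members and 461 of 7362 genes in hypertrophic-like cells. In proliferative cells it was found for 1 of 8 members and 648 of 8269 genes. No member passed in any of the 6 classes large enough for the fit. The shares of all genes that passed were 0.0605% in proliferative, 0.0136% in hypertrophic-like and 0.012% in resting cells, 0.00952% in cluster 7, and 0% in fibroblast-like and osteoprogenitor-like cells.

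*Ptch1* and *Hhip*, which differed together between fractions, are shown with the sequence around their transcription start, taken from RefSeq (GRCm38.p6; 250 bases before to 50 after the start, read 5′ to 3′ on the minus strand). The windows are chr13:63565686-63565985 for *Ptch1* and chr8:80057959-80058258 for *Hhip*, and the letters are in lower case throughout because no base is marked:
Ptch1: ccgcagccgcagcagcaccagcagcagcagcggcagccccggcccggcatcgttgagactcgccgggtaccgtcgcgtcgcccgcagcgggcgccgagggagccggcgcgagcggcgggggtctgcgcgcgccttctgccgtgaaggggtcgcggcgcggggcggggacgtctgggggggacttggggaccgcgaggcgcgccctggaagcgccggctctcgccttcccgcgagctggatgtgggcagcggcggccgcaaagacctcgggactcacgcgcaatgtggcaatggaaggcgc
Hhip: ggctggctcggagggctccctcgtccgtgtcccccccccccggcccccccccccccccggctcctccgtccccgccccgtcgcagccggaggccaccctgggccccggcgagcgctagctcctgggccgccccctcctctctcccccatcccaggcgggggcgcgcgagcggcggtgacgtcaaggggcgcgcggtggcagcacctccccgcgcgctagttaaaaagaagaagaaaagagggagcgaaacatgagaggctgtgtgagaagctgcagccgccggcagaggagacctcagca
The GLI consensus GACCACCCA and its reverse complement TGGGTGGTC were searched on both strands with no mismatch. Neither was found in these windows or in those of *Gli2*, *Gli3*, *Smo*, *Sufu* and *Cdon*, 0 of the 7 members with a window in the table, and 83 of all 32851 windows (0.253%) held one. A missing match says only that these letters are not in the window. The *Ptch1* window lies inside the annotated gene (chr13:63508328-63573598), and the *Hhip* gene spans chr8:79965851-80058006 on the same build.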

How the data were processed

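Counts deposited by the authors were used: whole UMI counts per gene and barcode from 4 droplet libraries (10x), made per the labels with Cell Ranger 7.2.0 on GRCm38 with transgene sequences added, and not normalised. The study's methods also name CellBender and DoubletFinder, and whether either had been applied to these counts was not tested; barcodes from 500 UMIs upward were present. The conditions within a library were taken from the sexes that the study's methods give for each pool, with 80% of at least 2 sex-linked UMIs (*Xist* against Y-linked genes) on 1 side.

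Kept barcodes had 1000 or more UMIs and 500 or more genes, with no more than 10% of UMIs mitochondrial. Cells with 2 or more UMIs of both sexes (277) and the top 5% of Scrublet scores per library were left out as doublets. Only barcodes with 3000 or more UMIs were given a Scrublet score, so cells of lower depth were not screened by it. Cells were clustered in scanpy 1.11.5 (2000 variable genes, 30 components, 15 neighbours, Leiden resolution 1), with 259 genes left out, among them the 9 genes, their pathway lists and cell cycle genes. Levels by class are CPM (per 1000000 UMIs) of the summed counts in each library with at least 5 cells of the class. The depth of the pseudobulks set the precision: 2068325 to 19010346 UMIs for all cells, 785939 to 7111021 for chondrocytes and 1227051 to 11171127 outside.

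Summed counts were fitted in R 4.3.3 with edgeR 4.0.16 (filterByExpr, TMM, glmQLFit, glmQLFTest), with the other factor as a covariate and Benjamini-Hochberg adjustment over all genes tested at a threshold of 0.05; DESeq2 1.42.0 and limma 3.58.1 (voom) were alternatives. The script was tested on simulated data. For pseudobulks, the study's methods name limma with TMM factors and its results edgeR. Classes needed 5 cells in every pseudobulk, in place of the planned 10. The p-values measure the spread between 8 pseudobulks, 2 from each of 4 embryo pools, and not between 8 independent animals. Since the same embryos gave both fractions of a pool, the numbers pair them; their deviations from the group means correlated at 0.214 (control) and 0.177 (p21) in chondrocytes and at 0.0723 and 0.163 outside, and the pool, or the library for p21 against control, was a block in an alternative.

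The 9 genes, the lists and the comparisons were chosen with earlier results of these data known. All 9 were named in every comparison, and of the lists those past the threshold (1 result is not reported here), the detected ligands, and the 5 genes most correlated with *Gli1* and *Ptch1*.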

Additional observations from a re-analysis of the deposited data

Results flagged for a closer look

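In 8 of 126 groups of 4 values, 1 value stood farther from the other 3 than Dixon's 95% critical value allows for its gap as a share of the group's range; chance gives about 1 in 20 groups. Values are CPM. *Gli1* outside cartilage was 24.95 in the control cells of tdT− collection 1, against 14.9 to 15.6 in the other tdT− pseudobulks. *Hhip* in chondrocytes was 15.95 in the control cells of tdT+ collection 2, against 4.99 to 5.42. *Sufu* outside cartilage was 43.3 in the p21 cells of tdT+ collection 1, against 31.2 to 31.7. *Cdon* in the control cells of tdT+ collection 2 was low, at 45.1 against 49.97 to 50.6 in all cells and at 43.9 against 54.6 to 56.6 outside cartilage. By class and library, *Gli2* in fibroblast-like cells was 99.9 in tdT+ collection 1, against 60.1 to 62.6. *Ptch1* in hypertrophic-like cells was 172 in tdT− collection 2, against 134 to 140, and *Boc* in the same class was 27.8 in tdT+ collection 1, against 16.5 to 17.2.

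Each of 236 comparisons took 1 gene and 1 pair of classes, with differences of p21 within libraries or of fractions within embryo pools. In 2 of them all 4 differences of one class lay on one side of 0 and all 4 of the other class on the other side. Both were for *Ptch1* between p21 and control. Random and independent signs would give 1.84 such comparisons, but the signs here are not independent, since they share embryos and classes. The mean difference was 0.52 on the log2 scale in hypertrophic-like cells and −0.52 in proliferative chondrocyte-like cells, 1.04 apart. In cluster 7 it was −0.23, so that cluster 7 and hypertrophic-like cells were −0.75 apart. The difference between classes was not tested in either case.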

How the results depend on the processing

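Of 1627 values of the 9 genes recomputed under alternatives, 1471 kept their direction and side of the threshold, 133 changed sign among values that passed in neither case, 19 newly passed, 4 no longer passed, and 0 that had passed were reversed. Genes called between fractions in all cells numbered 4 of the 9 with DESeq2, 5 with no filter on low counts and 4 with doublet scores kept, and 0 to 3 with a library or pseudobulk left out; the 0 came without tdT+ replicate 1 (*Hhip* 1.43, adjusted p = 0.126; *Ptch1* 0.51, adjusted p = 0.152). Outside cartilage they numbered 4 with no filter, and 0 to 3 with a library or pseudobulk left out, 0 again without tdT+ replicate 1. With no filter, 1 gene was called in the difference of the p21 effect between tdT+ and tdT− chondrocytes (*Hhip* −3.28, adjusted p = 0.0316) and 1 in the difference of the fraction effect between compartments (*Ptch1* −0.60, adjusted p = 0.000505). The 9 genes gave 0 calls in each of the other comparisons with any library left out. The *Gli1* level in osteoprogenitor-like cells was 33.5 CPM with a minimum of 3000 UMIs per cell and 28.2 to 30.3 with a library left out. Osteoprogenitor-like cells with a *Gli1* UMI made up 7.30% at 2000 UMIs and 46.5% with no thinning, a share that by construction rises with the UMIs drawn per cell. The cause of the other shifts was not tested.

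The counts of all genes moved more. The 328 genes between fractions in all cells became 669 with DESeq2, 1660 with no filter and 1 to 797 with a library left out. The 195 outside cartilage became 422, 1256 and 1 to 284, and 468 with 2 against 2 libraries and sex not used. The 1 in chondrocytes became 6 with DESeq2, 113 with no filter, 6 and 3 at Leiden resolutions 0.6 and 1.5, 2 with 2 against 2 libraries and 1 to 6 with a library left out. For p21 in chondrocytes, the 20 genes became 60 with DESeq2, 33 with limma voom, 250 with no filter, 12 with doublet scores kept, 37 with sex added, 3 with fractions summed and 2 to 15 with a library left out. For p21 outside, the 1 gene became 9 with DESeq2, 319 with no filter, 2 with all cells outside the chondrocyte class and 0 to 2 with a library left out, and it was lost (0 genes) with a minimum of 3000 UMIs, doublet scores kept, resolution 0.6 or 1.5, summed fractions or named connective classes only. The difference of the p21 effect between compartments gave 3 with DESeq2, 169 with no filter, 1 with doublet scores kept and 0 to 2 with a library left out, and that between tdT+ and tdT− chondrocytes 52 with no filter, 1 at resolution 1.5 and 0 to 3 with a library left out. The difference of the fraction effect between compartments gave 6 with DESeq2, 2 with limma voom, 289 with no filter, 2 with doublet scores kept, 3 with a stricter sex call, 14 and 2 at resolutions 0.6 and 1.5, 15 with named connective classes only and 0 to 7 with a library left out. That comparison, the named connective classes, the fraction comparison by class and the minimum of 5 cells were chosen after the data were seen.

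With the embryo pool as a replicate block, 2 of the 9 genes passed between fractions in all cells, 0 in chondrocytes, 2 outside cartilage and 0 by class, and over all genes 457, 13 and 274 did in the first 3. With the library as the replicate block, 0 of the 9 passed between p21 and control in chondrocytes, outside cartilage, by class or in the p21 difference between fractions, and over all genes 10 and 2 did in the first 2. No call on the 9 genes changed under either block.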
